A study of Mus musculus with 4 samples.

Results

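The adipogenic fate genes described here are 10 genes of the program by which a mesenchymal cell becomes a fat cell: the transcription factors Pparg, Cebpa, Cebpb and Cebpd, the lipid handling genes Lpl, Cd36 and Fabp4, the lipid droplet coat genes Plin1 and Plin2, and the secreted hormone gene Adipoq. They were found by their gene names among the 51826 genes of the deposited count matrix, and all 10 were present. Of these, 8 had counts and passed the filter for low counts (at least 10 on average per library), as did 16734 of all genes. Plin1 and Adipoq had 0 counts in all 4 libraries.

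RNA came from cultured mouse dermal papilla cells (DPCs), the mesenchymal cells at the base of the hair follicle, and dermal sheath cells (DSCs), which line the follicle. Each cell type was taken at passage 3 (low passage) and at passage 9 (high passage), and each of these 4 groups was sequenced as 1 library. The study asked which expression changes accompany the lower return of high-passage cells to hair follicles after injection into skin. The labels give the genotype of every library as WT. The study's methods instead describe cells grown from whisker follicles of EGFP-transgenic C57BL/6J mice aged 5 to 6 weeks. How many animals or cultures went into a library was not given in the sources used here, and neither the labels nor the methods describe a treatment of the sequenced cells that induces fat cell formation.

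Commitment to the fat lineage is known to start with a brief rise of C/EBP beta and C/EBP delta, which switch on the nuclear receptor PPAR gamma and C/EBP alpha. These factors then sustain each other and drive the genes for lipid uptake, droplet coating and adipokine secretion. In skin, fat cell precursors lie in the dermis beside the hair follicle, whereas the papilla and sheath are separate mesenchymal compartments of the follicle itself. Several of the 10 genes also work outside fat: Plin2 coats lipid droplets in most cell types, and Cd36, Lpl and Fabp4 are used by macrophages, muscle or endothelium.

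The libraries held 34981284 to 47604059 counts. Changes are log2 ratios of CPM, counts scaled by library size with the TMM method, and a gene was called higher or lower at an absolute log2 value of 2 or more (4-fold, the threshold the study states). With 1 library per group there is no replicate check, and no p-value is given for a single pair of libraries. The 95% intervals are exact Clopper-Pearson intervals that compare 2 libraries, not 2 conditions, and cover counting error only. By sign the papilla markers did not separate the labelled cell types in 1 direction: of 10 tested, 5 were above and 5 below 0 in DPCs over DSCs at each passage. At low passage 3 were called higher in DPCs (Sox2, Crabp1 and Lef1) and 0 lower, beside 1.52% and 2.77% of all genes. At high passage 2 were called higher and 2 lower, beside 2.5% and 3.91%. Crabp1 had 22409 counts in DPCs against 1518 in DSCs at low passage and 14584 against 20405 at high passage. Sox2 was 6.39-fold higher in DPCs at low and 10.5-fold at high passage, whereas Rspo2 had 442 counts in DPCs against 1671 in DSCs at low passage and 519 against 4813 at high passage. Of 8 sheath markers, 7 were higher in DPCs than in DSCs by sign at low passage and 1 at high passage. The fibroblast gene Vim was at 619.7 to 855.8 FPKM (a scale that divides fragments by gene length and depth), whereas Alpl, a classical papilla marker, had only 6 to 23 counts.

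To show what lies upstream of detected and undetected members, the 250 bases before the annotated start are given for the late factor Cebpa and the abundant Plin2, which had counts in every library, and for Plin1 and Adipoq, which had none. The sequences are those of RefSeq on GRCm38.p6, written 5′ to 3′ on the strand of the gene: Cebpa at chr7:35119043-35119292 (plus), Plin2 at chr4:86670060-86670309 (minus), Plin1 at chr7:79732777-79733026 (minus) and Adipoq at chr16:23146286-23146535 (plus). Capitals mark the TATA box letters TATAAA, the CCAAT box and the nuclear receptor hexamer AGGTCA on either strand.
Cebpa: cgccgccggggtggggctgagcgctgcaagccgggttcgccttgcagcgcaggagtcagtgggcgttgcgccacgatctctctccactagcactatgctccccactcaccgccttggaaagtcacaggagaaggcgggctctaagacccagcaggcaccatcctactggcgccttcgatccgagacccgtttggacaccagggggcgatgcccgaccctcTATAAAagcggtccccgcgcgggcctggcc
Plin2: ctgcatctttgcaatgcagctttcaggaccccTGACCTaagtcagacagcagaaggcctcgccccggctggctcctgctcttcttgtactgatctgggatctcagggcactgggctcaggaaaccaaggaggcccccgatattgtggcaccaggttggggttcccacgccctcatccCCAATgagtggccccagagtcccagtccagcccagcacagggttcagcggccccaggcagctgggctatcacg
Plin1: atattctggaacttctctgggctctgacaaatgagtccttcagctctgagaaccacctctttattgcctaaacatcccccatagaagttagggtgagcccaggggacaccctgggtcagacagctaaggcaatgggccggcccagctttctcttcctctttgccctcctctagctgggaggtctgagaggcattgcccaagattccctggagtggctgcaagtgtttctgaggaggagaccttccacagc
Adipoq: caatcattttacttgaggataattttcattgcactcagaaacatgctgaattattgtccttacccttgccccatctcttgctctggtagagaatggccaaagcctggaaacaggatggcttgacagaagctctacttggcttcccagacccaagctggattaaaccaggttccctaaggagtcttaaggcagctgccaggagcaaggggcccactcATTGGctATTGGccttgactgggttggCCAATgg

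The RefSeq table held 9 windows for 7 of the 10 genes, each from 250 bases before to 50 bases after a start, with 3 separate starts for Pparg. Fabp4, Lpl and Cebpd had no entry. CCAAT was found on either strand in 5 of the 9 windows, beside 37.4% of all 32851 windows of that length. The TATA box letters TATAAA were found in 3 of 9 windows, beside 13.6% of all windows, and the nuclear receptor hexamer AGGTCA in 4 of 9, beside 16.3%. The C/EBP palindrome TTGCGCAA and 2 AGGTCA hexamers in direct repeat with 1 base between them were in none of the 9 windows, beside 0.183% and 0.0396% of all windows. In Cebpa the TATAAA began 30 bases before the start, on the strand of the gene. In Cebpb it lay downstream of the start, and in Pparg it was on the opposite strand. In Plin2 the CCAAT began 73 bases before the start. Adipoq held 3 CCAAT copies within 34 bases of its start, and Plin1 held none of these motifs. Of the 3 Pparg windows, the first was GC-rich (80.3%), the second had 62.7% GC, and the third, with 40.3%, lay below the median window of 52.7%. The counts are given per gene, so they do not show which Pparg start was used.

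**Figure D1:**
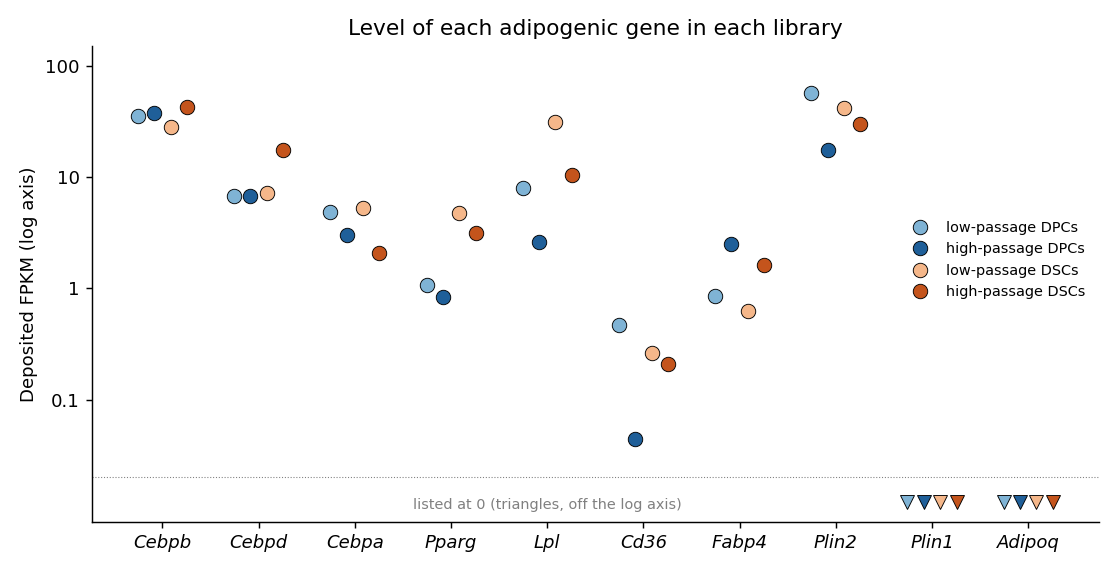
Deposited FPKM (log axis) of the 10 adipogenic fate genes, 1 point for each of the 4 libraries, without replicates or error bars. Plin2 and Cebpb lie at 17.5 FPKM or above in every library, Pparg and Fabp4 lie below 5 FPKM, Cd36 lies below 0.5 FPKM, and the triangles at the bottom mark Plin1 and Adipoq at 0.

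The early factor Cebpb and the droplet coat gene Plin2 were the most abundant of the 10 genes per length except in low-passage DSCs, where Lpl (31.4 FPKM) was above Cebpb (28.2), while the fat cell genes Adipoq and Plin1 were not detected. On the FPKM scale, which allows genes to be compared, Plin2 ranged from 17.5 to 56.7 and Cebpb from 28.2 to 42.3. Plin2 led in both low-passage libraries (1.63 times Cebpb in DPCs, 1.47 times in DSCs), and Cebpb led in both high-passage libraries (Plin2 at 0.464 and 0.706 times Cebpb). Lpl ranged from 2.62 to 31.4 FPKM, Cebpd from 6.7 to 17.4 and Cebpa from 2.09 to 5.25. Pparg (0.835 to 4.76), Fabp4 (0.619 to 2.48) and Cd36 (0.0442 to 0.466) had the lowest means among those detected, although Cebpa (2.09) was below Pparg (3.12) in high-passage DSCs. Among all genes tested, Cebpb stood above 86.0% to 91.3% of genes by FPKM, and Cd36 above only 2.56% to 17.5%.

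The 0 counts of Adipoq, which encodes the fat cell hormone adiponectin, and of Plin1, which encodes the coat protein of the large droplets of fat cells, allow up to 3 counts per library, or 0.0658 to 0.0836 CPM. Of 15 other late adipocyte markers, 5 were also at 0 in every library: Lep, Retn, Cfd, Adig and Cidec. Another 4 were under the count filter and 6 were tested. The hormone genes Adipoq, Lep and Retn and the droplet genes Plin1 and Cidec were thus at 0 at either passage in both cell types.

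Among the transcription factors, the late factor Cebpa had fewer scaled counts at passage 9 in both cell types and Pparg in DSCs, beyond counting error, while the early factor Cebpb had more in both and Cebpd in DSCs. The counting intervals of Pparg and Cebpd in DPCs included 0. None of the 4 reached 4-fold with passage in either cell type.

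Cebpb (chr2:167688915-167690418, plus strand) encodes C/EBP beta, an early factor that also takes part in inflammatory and stress responses. It had 2101 and 2224 counts in low- and high-passage DPCs and 1857 and 3418 in low- and high-passage DSCs (57.1, 62.0, 49.0 and 75.0 CPM). The high-passage DSC library was the highest of the 4. The log2 passage change was 0.12 in DPCs (interval 0.03 to 0.21) and 0.61 in DSCs (0.53 to 0.70). An exon of Tmem189 on the other strand covers 20.7% of the exonic bases of Cebpb, and the use of strand in counting was not stated, so reads of the pair cannot be told apart there.

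Cebpd (chr16:15887286-15891031, plus strand) encodes C/EBP delta, the partner of C/EBP beta in the early wave. Its counts were 952 and 1001 in low- and high-passage DPCs and 1186 and 3494 in low- and high-passage DSCs, or 25.9, 27.9, 31.3 and 76.7 CPM. High-passage DSCs stood apart from the other 3 libraries. The passage change was 1.29 on the log2 scale in DSCs (1.20 to 1.39), or 2.45-fold, and 0.11 in DPCs, where the interval of -0.02 to 0.24 included 0. Spidr on the other strand overlaps 15.0% of the exonic bases of Cebpd.

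Cebpa (chr7:35119293-35121928, plus strand) encodes C/EBP alpha, which maintains the mature fat cell state and its response to insulin. It had 505 counts in low-passage and 309 in high-passage DPCs, and 604 in low-passage and 295 in high-passage DSCs, or 13.7, 8.61, 15.9 and 6.47 CPM. Both high-passage libraries lay below both low-passage libraries. The log2 change was -0.67 in DPCs (-0.88 to -0.47) and -1.29 in DSCs (-1.50 to -1.10), the latter 2.45-fold. Within each library the ratio of Cebpb to Cebpa on the FPKM scale was 7.27 in low-passage and 12.6 in high-passage DPCs, and 5.37 in low-passage and 20.3 in high-passage DSCs. The balance of the early over the late C/EBP gene was thus higher at passage 9 in both cell types, and the ratio in high-passage DSCs was the highest.

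Pparg (chr6:115360951-115490399, plus strand) encodes PPAR gamma, the nuclear receptor without which fat cells do not form. It had 92 and 68 counts in low- and high-passage DPCs and 421 and 334 in low- and high-passage DSCs, which is 2.5, 1.89, 11.1 and 7.33 CPM. Both DSC libraries were above both DPC libraries. The passage change was -0.39 in DPCs, with an interval of -0.87 to 0.07 that included 0, and -0.60 in DSCs (-0.81 to -0.39). Its paralog Ppard, a more widely expressed receptor, was at 12.6 to 15.3 FPKM and exceeded Pparg 13.6 and 18.3 times in low- and high-passage DPCs and 2.94 and 4.06 times in low- and high-passage DSCs. Rxra, the partner receptor that binds DNA with PPAR gamma, was at 17.5 to 21.8 FPKM with passage changes of -0.16 in DPCs and 0.21 in DSCs.

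Lpl and Plin2 were lower at passage 9 in both cell types and Cd36 in DPCs, beyond counting error, while Fabp4 was higher in both. Cd36 in DPCs was the only member to pass 4-fold with passage. For the DPC passage change the share of all genes called higher was 5.58% and lower 4.36%, beside 0 and 1 of the 8 members, and the members' median log2 change was -0.53 against 0.03 for all genes. In DSCs, 2.67% of all genes were called higher and 1.16% lower, beside 0 members each way, with medians of -0.43 and 0.00. At 2-fold, 1 member was higher (Fabp4) and 3 were lower (Lpl, Cd36 and Plin2) in DPCs, where 16.1% of all genes were higher and 15.0% lower. In DSCs 2 were higher (Cebpd and Fabp4) and 2 lower (Cebpa and Lpl), against 8.55% and 6.21% of all genes. With only 8 genes, 1 member is a larger share than most of these percentages, and the members were not tested as a set. In bulk RNA, fewer cells of a type and less RNA per cell cannot be told apart.

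An additive fit over all 4 libraries (edgeR's quasi-likelihood test with cell type and passage as terms, 1 residual degree of freedom) takes the difference between the cell types' changes as error. It was added after the data were seen. For passage it called 0 of 16734 genes (0.0%) at an adjusted p under 0.05, with 2822 genes under 0.05 before adjustment, 4 of the 8 members among them. The member with the lowest adjusted p was Lpl, at -1.58 on the log2 scale with a Benjamini-Hochberg adjusted p of 0.188 and lower in both cell types. For cell type it also called 0 genes (0.0%), with 1381 under 0.05 before adjustment, among them Lpl (-2.07, edgeR adjusted p = 0.115) and Pparg (-2.05, edgeR adjusted p = 0.221), each lower in DPCs at both passages. No member thus passed in either direction.

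**Figure D2:**
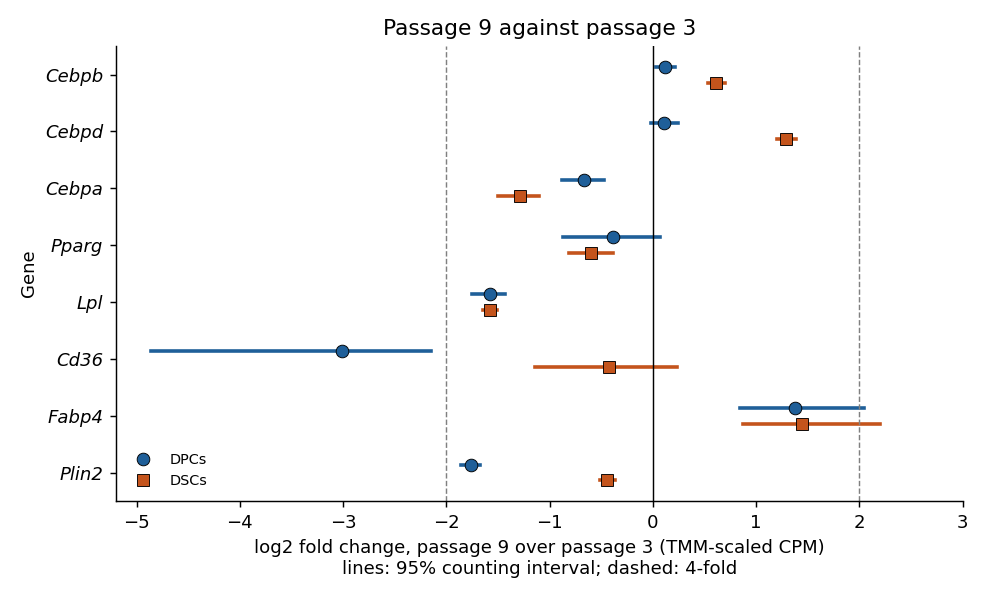
Log2 fold change from passage 3 to passage 9 (horizontal axis) of the 8 detected genes in DPCs (circles) and DSCs (squares), 1 library per group. Lines are 95% counting intervals and dashed lines mark 4-fold. Lpl has the same value in both cell types (-1.58), Cebpd and Plin2 separate the cell types, and only Cd36 in DPCs lies beyond a dashed line.

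Lpl (chr8:68880491-68907448, plus strand) encodes lipoprotein lipase, the secreted enzyme that frees fatty acids from circulating triglycerides and a direct target of PPAR gamma. It had 1293 and 420 counts in low- and high-passage DPCs and 5580 and 2238 in low- and high-passage DSCs (35.1, 11.7, 147.1 and 49.1 CPM). The order ran from low-passage DSCs at the top to high-passage DPCs at the bottom. The passage change was -1.58 in DPCs (-1.75 to -1.43) and -1.58 in DSCs (-1.65 to -1.51), or 2.99-fold in each. The difference between these changes was 0.00 (counting interval -0.17 to 0.17).

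Plin2 (chr4:86648386-86670060, minus strand) encodes the ubiquitous lipid droplet coat protein perilipin 2. It had 4004 and 1151 counts in low- and high-passage DPCs and 3165 and 2806 in low- and high-passage DSCs, which is 108.8, 32.1, 83.5 and 61.6 CPM. High-passage DPCs held the least and low-passage DPCs the most. The log2 change was -1.76 in DPCs (-1.86 to -1.67), or 3.39-fold, and -0.44 in DSCs (-0.51 to -0.37). Some of its sequence is shared with Gm12551, in 2.57% of the 50-base windows of its exons, where reads could be counted at either gene.

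Other perilipins differed in level. Plin3, a coat protein found in most cells, was at 21.4 to 24.6 FPKM with passage changes of 0.20 in DPCs and -0.03 in DSCs. Plin4, which coats small new droplets in fat and muscle, had 1048 and 345 counts in low- and high-passage DPCs and 2794 and 2173 in low- and high-passage DSCs, with log2 changes of -1.56 and -0.63. Plin5 had 0 counts at low passage in both cell types, and at high passage 26 counts in DPCs and 6 in DSCs. Plin2 and Plin4 were thus both lower at passage 9, more so in DPCs by value, while Plin3 was near level.

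Cd36 (chr5:17781690-17888801, minus strand) encodes a scavenger receptor that takes up long-chain fatty acids. It had 63 and 6 counts in low- and high-passage DPCs and 41 and 36 in low- and high-passage DSCs (1.71, 0.167, 1.08 and 0.79 CPM). High-passage DPCs were below the other 3 libraries. The log2 change was -3.01 in DPCs (-4.86 to -2.15), or 8.07-fold, and -0.43 in DSCs with an interval of -1.14 to 0.23. The DPC value rests on few counts, and on the deposited FPKM with a pseudocount of 0.1 it was -1.97, short of 4-fold.

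Fabp4 (chr3:10204088-10208576, minus strand) encodes the fatty acid carrier of fat cells and macrophages, also called aP2. Its counts were 34 and 89 in low- and high-passage DPCs and 26 and 89 in low- and high-passage DSCs, or 0.924, 2.48, 0.686 and 1.95 CPM. Both high-passage libraries were above both low-passage libraries. The passage change was 1.38 in DPCs (0.84 to 2.04) and 1.44 in DSCs (0.87 to 2.20), the only lipid gene of the 10 to be higher at passage 9 in both. Fabp5, the related carrier of epidermis and many other cells, was 54.2 to 248.8 times as abundant per length. It had 8594 and 5412 counts in low- and high-passage DPCs and 3031 and 6575 in low- and high-passage DSCs, with changes of -0.63 and 0.85.

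For the difference between the passage changes of the 2 cell types (DPC minus DSC, log2), the counting interval lay away from 0 for Cebpa (0.62, 0.34 to 0.91), Cebpb (-0.50, -0.61 to -0.38), Cebpd (-1.18, -1.34 to -1.02), Cd36 (-2.58, -3.82 to -1.35) and Plin2 (-1.32, -1.44 to -1.20). It included 0 for Pparg (0.21, -0.29 to 0.70), Lpl (0.00) and Fabp4 (-0.07, -0.89 to 0.76). These intervals, from a normal approximation to the log counts, compare the 4 libraries, and without replicates the difference between cell types was not tested.

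Between the cell types, Pparg and its target Lpl were lower in DPCs than in DSCs at both passages, about 4-fold each, while the other members differed less or changed order with passage. At low passage 1.52% of all genes were called higher in DPCs and 2.77% lower, beside 0 and 2 of the 8 members. The 2 were Pparg, at -2.13 (-2.49 to -1.82, 4.37-fold), and Lpl, at -2.06 (-2.15 to -1.98, 4.18-fold). The same 2 genes were the members past 2-fold, all lower, where 5.43% of all genes were higher and 7.86% lower. At high passage the shares of all genes were 2.5% higher and 3.91% lower, beside 0 and 1 member: Lpl, again at -2.06 (-2.22 to -1.92), with Pparg at -1.92 (-2.35 to -1.57). Past 2-fold, 0 members were higher and 4 lower (Pparg, Cebpd, Lpl and Cd36), beside 9.11% and 11.0% of all genes. The contrasts at the 2 passages use different libraries. The Lpl values lie close to the threshold, and with scaling by total counts alone they were -1.97 and -1.96, so the 4-fold calls depend on the scaling while the direction did not change.

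The other members showed smaller contrasts at low passage. Plin2 was 0.38 higher in DPCs on the log2 scale at low passage (0.31 to 0.45) and 0.94 lower at high passage, where the value was -0.94 (-1.04 to -0.84). Cd36 was at 0.64 (0.07 to 1.27) and then -1.95 (-3.78 to -0.98). Cebpb was at 0.22 and then -0.28, and Cebpa at -0.21 and then 0.41. These 4 genes changed order between the cell types. With halved counts the low-passage intervals of Cebpa and Cd36 included 0. Cebpd was lower in DPCs at both passages, at -0.27 (-0.40 to -0.15) and -1.46 (-1.56 to -1.36). For Fabp4 both intervals included 0, with 0.40 (-0.35 to 1.23) at low passage and 0.34 (-0.10 to 0.79) at high passage. The members' median was 0.00 at low passage and -1.20 at high passage, against 0.00 and -0.01 for all genes. In the same contrasts the fibroblast markers had medians of -0.08 and -2.54, with 10 of 11 lower in DPCs by sign at high passage. The sheath markers had medians of 0.68 and -1.23, with 7 of 8 lower at high passage. A link between these markers and the members was not tested.

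**Figure D3:**
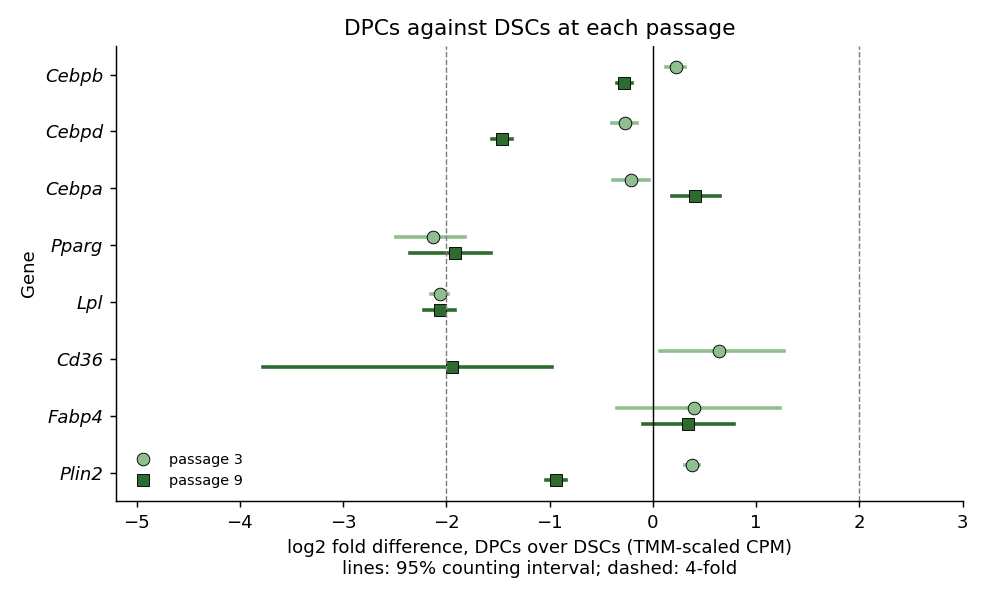
Log2 fold difference of DPCs over DSCs (horizontal axis) for the 8 detected genes at passage 3 (circles) and passage 9 (squares), 1 library per group, with 95% counting intervals and dashed lines at 4-fold. Lpl sits at -2.06 at both passages and Pparg at -2.13 and -1.92, while Cebpa, Cebpb, Cd36 and Plin2 lie on opposite sides of 0 at the 2 passages.

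The genes that surround this program were described from lists of its regulators and of lipid metabolism. The passage calls in each list below stand beside the shares of all genes called. In DPCs these shares were 5.58% higher and 4.36% lower, and in DSCs 2.67% and 1.16%. Of 20 other activators of fat cell formation, 20 were tested, and 2 were called higher and 0 lower with passage in DPCs (median 0.17). In DSCs 1 was higher and 1 lower (median -0.15). The called genes were Ebf2, a factor of brown fat precursors, and Ppargc1a, a coactivator of mitochondrial genes, both named after their values were seen. Ebf2 had 13 and 127 counts in low- and high-passage DPCs (3.15, log2) and 42 and 5 in low- and high-passage DSCs (-2.85). Ppargc1a had 4 and 64 counts in DPCs (3.52) and 0 and 23 in DSCs, at least 6.38-fold higher at high passage. Xbp1, the most abundant activator, a factor of the unfolded protein response, changed by 0.08 in DPCs and -0.08 in DSCs. Both called genes had few counts, whereas Xbp1 was near level.

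Of 20 repressors, 18 were tested and 0 were called in either cell type, with medians of 0.21 in DPCs and -0.14 in DSCs.

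Among 20 genes of fatty acid and triglyceride synthesis, 16 were tested, with 1 called higher and 1 lower in DPCs and 0 in DSCs. The medians were -0.65 in DPCs and -0.17 in DSCs. Agpat2, an acyltransferase of triglyceride assembly, had 905 and 3799 counts in low- and high-passage DPCs and 424 and 1238 in low- and high-passage DSCs, a log2 change of 2.10 in DPCs and 1.28 in DSCs. Slc2a4, the insulin-regulated glucose transporter, had 52 and 9 counts in DPCs (-2.28) and 18 and 62 in DSCs (1.42), and was named after its values were seen. The most abundant gene, the desaturase gene Scd2, ranged from 134.7 to 344.2 FPKM and changed by -1.34 in DPCs and -0.48 in DSCs.

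Of 17 genes of lipolysis and of other droplet proteins, 13 were tested. In DPCs 2 were called higher and 1 lower (median -0.28), and in DSCs 1 was higher and 0 lower (median 0.05). Lipe, the hormone-sensitive lipase gene, had 152 and 688 counts in low- and high-passage DPCs (2.20, 1.96 to 2.48) and 196 and 403 in low- and high-passage DSCs (0.77). Mgll, which encodes the lipase of the final step of lipolysis, had 2007 and 367 counts in DPCs (-2.41, -2.58 to -2.25) and 6307 and 5727 in DSCs (-0.40). The droplet gene Cideb, named after its values were seen, had 4 and 53 counts in DPCs (3.26) and 4 and 78 in DSCs (3.49). The lipase genes Lipe and Mgll thus moved in opposite directions in DPCs. Cavin1, a caveolar coat gene and the most abundant of the list, changed by -1.27 in DPCs and -0.49 in DSCs.

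Of the 6 late adipocyte markers that were tested, 1 was called higher (Lipe) and 2 lower (Slc2a4 and Trarg1) in DPCs, and 0 higher and 1 lower (Trarg1) in DSCs. Trarg1, a glucose transporter trafficking gene named after its values were seen, had 51 and 0 counts in low- and high-passage DPCs, at least 16.6-fold lower, and 145 and 25 in low- and high-passage DSCs (-2.69).

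**Figure D4:**
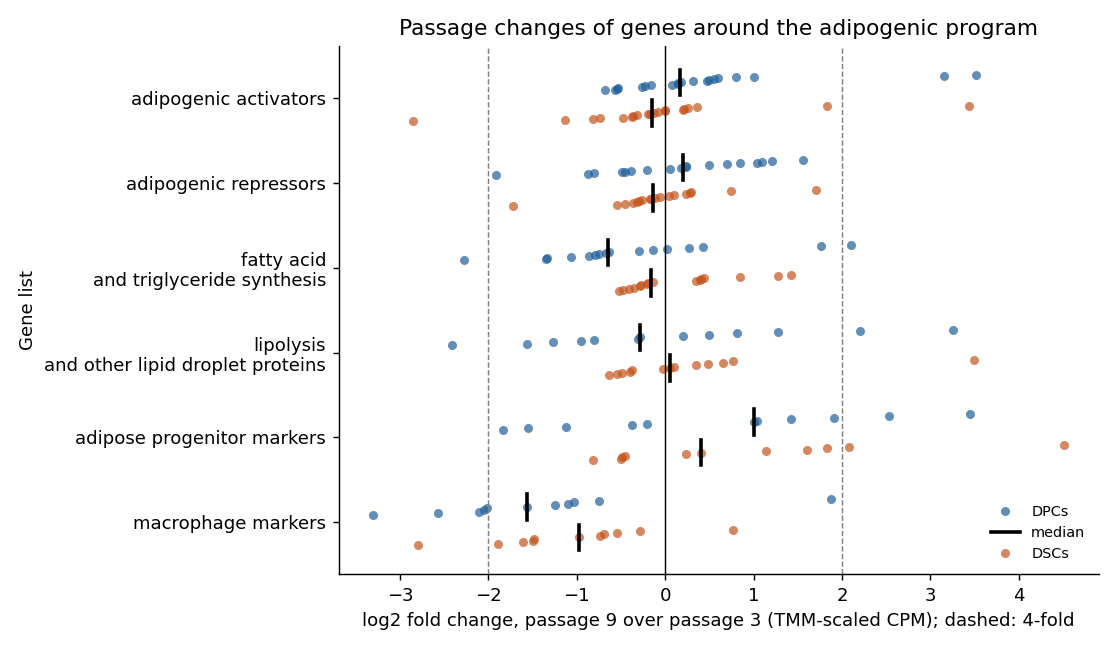
Log2 fold change from passage 3 to passage 9 (horizontal axis) of each tested gene of 6 lists in DPCs (blue) and DSCs (orange). Each point is 1 gene in 1 pair of libraries, black bars are medians and dashed lines mark 4-fold. Most activators and repressors lie between the dashed lines, and 10 of the 11 macrophage markers lie below 0 in each cell type.

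Markers of other cell types, some of which use the same lipid genes, were measured beside the members. Of 12 macrophage markers, 11 were tested, and 10 were lower and 1 higher at passage 9 by sign in each cell type, with 5 called lower in DPCs and 1 in DSCs. Their summed level was 137.6 CPM in low-passage DPCs and 89.2 in high-passage DPCs, and 186.2 in low-passage and 110.2 in high-passage DSCs. Lyz2, the lysozyme gene of macrophages, led the list with changes of -0.75 in DPCs and -0.74 in DSCs. The defining markers Adgre1 (118, 27, 157 and 95 counts in low- and high-passage DPCs and low- and high-passage DSCs) and Ptprc (70, 22, 116 and 18 counts in the same order) were low. Macrophage marker levels thus moved in the direction of Lpl, Cd36 and Plin2 and opposite to Fabp4, and their part in these values was not tested. The 10 endothelial markers summed to 3.03 to 9.15 CPM, and Pecam1 had 4 to 23 counts. The fibroblast markers summed to 29394.9 CPM in low-passage and 9826.9 in high-passage DPCs, with 9 of 11 lower by sign and 3 called lower (median -1.48). In low- and high-passage DSCs they summed to 47954.4 and 42010.8 CPM (median -0.12). There 0 were called lower and 2 higher, among them Dcn with 3292 and 89544 counts in low- and high-passage DSCs. The sheath markers summed to 10914.7 and 4125.9 CPM in low- and high-passage DPCs. Of the 8, 7 were lower there by sign (median -1.70), with 2 called lower and 1 higher. In low- and high-passage DSCs they summed to 8336.1 and 7406.9 CPM (median 0.10). By median the fibroblast and sheath markers thus both moved with Lpl, Cd36 and Plin2 in DPCs, and their part in those values was not tested. Schwann cell markers, with 5 of 7 tested called lower in each cell type, summed to 5.38 to 32.6 CPM, keratinocyte markers to 2.58 to 56.4 CPM (Krt5 at 0 throughout, the junction gene Dsp at 10 and 184 counts in low- and high-passage DPCs and 84 and 2307 in low- and high-passage DSCs) and skeletal muscle markers to 1.98 to 50.1 CPM.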

How the data were processed

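RNA of cultured DPCs and DSCs at passages 3 and 9 was sequenced, 1 library each. The authors deposited 1 matrix of raw counts and, per library, FPKM values that the authors normalized for length and depth. The submitters' processing notes list Bowtie 0.12.2, mm8 and mm9, but 94.1% of the 51633 gene IDs found in GENCODE M21 had identical GRCm38 positions, as did all 10 members. The labels name a TruSeq kit, while the methods describe poly-T selection with another kit. Genes with 2 counts outnumbered those with 3 (1339 against 583 in low-passage DPCs), as where both mates of a pair are counted.

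Counts were scaled by TMM (edgeR 4.0.16, R 4.3.3) over 16734 genes with a mean count of at least 10, and log2 CPM took a prior count of 2. Floors of 3 counts came to 0.0815, 0.0836, 0.0791 and 0.0658 CPM in low- and high-passage DPCs and low- and high-passage DSCs. If both mates were counted, the floors double and the lower bounds on folds halve. Scaling and fit were tested on simulated data. The members and lists were chosen with earlier results of these data known. Named besides the 10 members were, per list, the gene of highest mean FPKM and up to 4 called genes per comparison with a mean count of at least 100, plus others marked as named after their values were seen. Marker genes were named where a check turned on them. For 1 list a gene that this rule names is not reported here. Alternatives were total counts, DESeq2 1.42.0 size factors, upper-quartile scaling, other prior counts, filters and thresholds, halved counts and FPKM. An additive edgeR fit over cell type and passage (1 residual degree of freedom) was added after the data were seen. The interaction could not be tested.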

Additional observations from a re-analysis of the deposited data

Results flagged for a closer look

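Several genes had differences of opposite sign in 2 settings, and none of these was tested, since each group had 1 library. Of the 10 adipogenic genes, 4 changed order between DPCs and DSCs from passage 3 to passage 9. For Cebpa and Cd36 the order at passage 3 was not beyond counting error when the counts were halved. The low-passage contrast minus the high-passage contrast (DPCs over DSCs, log2) was 2.58 for Cd36, 1.32 for Plin2, 0.50 for Cebpb and -0.62 for Cebpa.

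Among the genes of the lists, the passage change had opposite signs in the cell types. The DPC change minus the DSC change was -1.48 for Fabp5, -0.37 for Rxra and 0.16 for Xbp1. It was 3.91 for Icam1, an adhesion molecule of committed fat cell precursors, which had 17 and 200 counts in low- and high-passage DPCs and 116 and 101 in low- and high-passage DSCs. F3, a marker of a precursor subset that holds back fat cell formation, stood at -2.95, with 19232 and 8641 counts in DPCs and 14784 and 63242 in DSCs. Of the hair follicle and fibroblast markers, Crabp1 gave -4.07, Myh11 -5.35 and Col3a1 -3.38.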

How the results depend on the processing

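Each group had 1 library, so no replicate could be left out. No paired analysis was possible because every replicate number is 1, but cell type served as a block in the additive fit, which called 0 members for passage and 0 for cell type. Over 10 settings the members gave 312 values: 287 stayed within the counting interval of the reported value, 25 did not, 0 changed sign and 10 changed side of 4-fold. The number of members at least 4-fold lower with passage in DPCs, 1 as reported, was 0 with a mean count of at least 100 (which removes Cd36 and Fabp4) and 0 on FPKM with a pseudocount of 0.1 or 1. At a 2-fold threshold it was 3 lower and 1 higher, and in DSCs 2 lower and 2 higher. In the low-passage cell type contrast the number lower, 2 as reported, was 1 with total counts, 1 on FPKM with a pseudocount of 0.1 and 0 with a pseudocount of 1. In the high-passage contrast, 1 as reported, it was 0 with total counts, 2 with a prior count of 0.5, 0 on FPKM with either pseudocount and 4 at 2-fold. There the members' median of -1.20 was -0.48 on FPKM with a pseudocount of 1, which shrinks low genes. The count of all genes called higher with passage ranged from 177 to 2697 in DPCs and from 53 to 1430 in DSCs. With halved counts, 24 of the 27 member intervals away from 0 stayed so, out of 32. Those that did not were Cebpb with passage in DPCs, and Cebpa and Cd36 between the cell types at low passage. A comparison of the protein sequences was not run, since no protein table was used here. Depth limits Cd36 and Fabp4, and the 0 of Plin1 and Adipoq, most.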

Other observations

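Markers of adipose precursors and of thermogenic fat were described too, and some of them (Icam1, F3, Ebf2 and Ppargc1a) are given above. Of 14 precursor markers 11 were tested, and 2 were called higher with passage in each cell type: Icam1 and Cd24a in DPCs, and Cd24a and Bmp7 in DSCs. Cd24a, a surface marker of early fat cell precursors, had 62 and 357 counts in low- and high-passage DPCs (2.53, log2) and 19 and 104 in low- and high-passage DSCs (2.08). Bmp7, a signal of brown fat formation named after its values were seen, had 0 and 51 counts in low- and high-passage DSCs, at least 14.1-fold higher, and 9 and 38 in DPCs (1.91). The general precursor marker Pdgfra was higher at passage 9 by 1.42 in DPCs and 1.14 in DSCs. By sign, 5 of the 11 markers were lower in DPCs and 4 in DSCs, among them Pdgfrb (-0.38 and -0.49) and Anxa3 (-1.55 and -0.50) in both and Ly6a in DPCs (-1.83).

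Of 12 thermogenic markers, Ucp1, Cidea and Cox8b were at 0 in all libraries and 5 were tested. In DPCs 3 were called higher: Dio2, and the called activators Ebf2 and Ppargc1a given above. By sign 4 of the 5 were higher and 1 was lower (Prdm16) in DPCs. Prdm16, named after its values were seen, had 275 and 118 counts in low- and high-passage DPCs and 210 and 341 in low- and high-passage DSCs. In DSCs 1 was called higher (Ppargc1a) and 1 lower (Ebf2). Dio2, the enzyme that activates thyroid hormone, had 356 and 6054 counts in low- and high-passage DPCs (4.12, 3.97 to 4.28) and 1984 and 5250 in low- and high-passage DSCs (1.14).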
